A study of Homo sapiens with 14 samples.

Results

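Mitochondrial ribosomal proteins are the nuclear-encoded protein subunits of the mitoribosome, and their genes were chosen by name: every gene symbol in the single-cell matrices made of MRPL or MRPS and a number, with an optional letter A to C. The rule gave 78 genes of the 36601 in the matrices, and left out 3 non-coding neighbours with like names, MRPL20-AS1, MRPS30-DT and MRPL23-AS1. Of the 78 genes, 49 are named for the large subunit and 29 for the small one. The study followed human colorectal cancer cells through a long-term culture (LTC) without passage, in which SW620 cells, a line from a lymph node metastasis, first grow as compact colonies and later spread out of them. Both SW620 and SW620-TET2CD were taken for single-cell libraries at 4 times, days 6, 9, 12 and 15, each line and day giving 1 library. SW620-TET2CD carries the catalytic domain of TET2, an enzyme that oxidises 5-methylcytosine in DNA, and the control culture, labelled SW620, appears to be the one the study calls SW620-FLAG, which carries an empty FLAG vector. The bulk libraries were SW480 on day 6, a line from the primary tumour of the same patient, SW620 on day 6, and, for SW620 and SW620-TET2CD on day 15, separate fractions from inside the colonies and from outside them, again with 1 library each. By the study's methods the fractions come from straining a digested culture, the outside cells being those that pass and the colonies those held back. No condition had a second culture, so p-values measure the spread between these libraries.

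The mitoribosome sits in the mitochondrial matrix and translates the few messenger RNAs that mitochondrial DNA encodes, all of them for core subunits of the respiratory chain and the ATP synthase. Its RNAs come from mitochondrial DNA, while its proteins are made in the cytosol and imported. Some of these proteins descend from those of the bacterial ribosome, and others were added during the evolution of mitochondria. By the numbers in their names, 44 of the 78 genes have a bacterial homologue (28 named for the large and 16 for the small subunit) and 34 do not. MRPL58 is a peptidyl-tRNA hydrolase that became part of the large subunit, and MRPS36, in spite of its name, is known as a subunit of the 2-oxoglutarate dehydrogenase complex.

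The genes were scattered over 21 chromosomes, with none on X. A start of a gene on the opposite strand lay within 500 bases of the start of 28 of the 78 genes (35.9%), against 20.04% of 20046 protein-coding genes in the GENCODE annotation of GRCh38. One such pair consists of 2 members, MRPL46 and MRPS11 on chromosome 15, and another joins MRPS12 to SARS2, the mitochondrial seryl-tRNA synthetase, on chromosome 19. RefSeq promoter sequences (GRCh38.p14, 250 bases before to 50 after the start) were matched for 69 of the 78 genes. Short motifs of 4 factors were searched on both strands. The letters CCGGAAGT, bound by ETS factors such as GABP, were present in 12 of the 69 (17.4%) against 6.97% of 15843 coding genes with a promoter. The letters AAGATGGCG, the core of the YY1 motif, were present in 13 (18.8%) against 3.21%. The palindromic E-box CACGTG was found in 9 (13.0%) against 10.9%, and GCGCATGCG of NRF1 in 3 (4.35%) against 3.11%. Such a match is a description of letters and not of a bound site. Exons of another annotated gene overlapped 30 of the 78 genes on the opposite strand and 18 on the same strand, and many of these genes have processed pseudogenes, so counts of single genes can hold reads of such neighbours or copies, above all in bulk, where strand was not marked.

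The promoter windows below run from 120 bases before the start to 20 after it, 5′ to 3′ on the gene's strand, with the searched letters (or their complement) in capitals. MRPL20, MRPL3 and MRPS34 are shown for the ETS letters, which lay 44, 32 and 20 bases before the start.
MRPL20 (chr1:1407274-1407413, minus strand): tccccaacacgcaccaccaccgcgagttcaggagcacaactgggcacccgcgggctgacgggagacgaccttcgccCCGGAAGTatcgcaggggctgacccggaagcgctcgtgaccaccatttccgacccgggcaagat
MRPL3 (chr3:131502952-131503091, minus strand): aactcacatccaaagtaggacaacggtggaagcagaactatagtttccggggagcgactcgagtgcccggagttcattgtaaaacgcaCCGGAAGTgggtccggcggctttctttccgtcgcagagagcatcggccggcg
MRPS34 (chr16:1773115-1773254, minus strand): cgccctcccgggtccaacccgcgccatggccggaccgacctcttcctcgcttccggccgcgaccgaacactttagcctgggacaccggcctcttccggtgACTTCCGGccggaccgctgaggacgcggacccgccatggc
MRPL46, MRPL42, MRPS10 and MRPS18A are shown for the YY1 letters, which began 8 or 9 bases after the first transcribed base in each of them, on the same strand.
MRPL46 (chr15:88467369-88467508, minus strand): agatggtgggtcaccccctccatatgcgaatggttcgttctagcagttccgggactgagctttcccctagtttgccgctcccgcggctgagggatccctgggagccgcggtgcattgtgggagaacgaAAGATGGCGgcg
MRPL42 (chr12:93467394-93467533, plus strand): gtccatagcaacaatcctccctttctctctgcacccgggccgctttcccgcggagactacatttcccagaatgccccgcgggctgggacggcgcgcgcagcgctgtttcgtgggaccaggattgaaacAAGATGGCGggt
MRPS10 (chr6:42217842-42217981, minus strand): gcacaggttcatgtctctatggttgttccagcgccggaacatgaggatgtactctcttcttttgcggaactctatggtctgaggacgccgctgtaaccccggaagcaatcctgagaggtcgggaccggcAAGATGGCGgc
MRPS18A (chr6:43687772-43687911, minus strand): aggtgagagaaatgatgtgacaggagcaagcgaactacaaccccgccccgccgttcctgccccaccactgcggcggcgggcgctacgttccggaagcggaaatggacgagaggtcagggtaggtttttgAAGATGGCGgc
MRPL17, which encodes a large subunit protein with a bacterial homologue, is shown for NRF1 letters that match 3 times, including a pair of overlapping matches on opposite strands.
MRPL17 (chr11:6683321-6683460, minus strand): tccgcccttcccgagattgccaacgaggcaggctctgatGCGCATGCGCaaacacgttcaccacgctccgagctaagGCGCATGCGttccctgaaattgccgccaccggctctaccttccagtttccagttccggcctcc

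Each single-cell library held 48186195 to 74185723 UMIs (unique molecular identifiers, 1 per captured RNA molecule) in 3894 to 8154 kept cells, and each bulk library 16470060 to 25840463 expected counts. Pairs of single-cell libraries shared 1 to 23 cell barcodes among 48282 kept cells. TET2 was at 2.11 to 3.90 CPM (counts scaled to a fixed library total) in the 4 SW620 libraries and at 40.2 to 106.6 CPM in the 4 SW620-TET2CD libraries, as the labels have it. Summed colorectal epithelial markers stood at 8098 to 12240 CPM. KRT18 (4335 to 7254 CPM) and KRT8 (2991 to 4327 CPM) were highest. EPCAM was at 496 to 639 CPM, VIL1 at 82.9 to 123, CDH1 at 24.7 to 119 and CDX2 at 8.99 to 20.4. The other listed genes were nearly absent, KRT20 at 0.217 to 0.965 CPM and CDX1 at 0 in 5 libraries and at most 0.207. Of 9 markers of blood, stromal and endothelial cells, the sum was 3.45 to 4.73 CPM on days 6 and 9 and 6.66 to 40.1 CPM on days 12 and 15. Most of that rise was CD68, a lysosomal protein of macrophages and other cells, which went from at most 1.88 to between 3.61 and 36.9 CPM, whereas the leukocyte markers PTPRC and CD3E and the fibroblast collagens COL1A2 and COL3A1 stayed under 0.06 CPM. UMIs per cell differed between libraries without a common direction over time, from a median of 6640 on day 9 in SW620 to 13479 on day 6 in SW620.

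All 78 genes were detected in every library. Their mean level over the 8 single-cell libraries ran from 3.17 CPM (MRPL53) to 422.7 CPM (MRPL51), with a median of 99.9 CPM, in UMIs of 3′ ends, which do not scale with transcript length. MRPL53, a large subunit protein, was the only one under 8 CPM. Together the 78 genes took 1.19% of UMIs in SW620 on day 6, 1.03% on day 9, 0.666% on day 12 and 0.656% on day 15. In SW620-TET2CD the same shares were 1.23%, 1.04%, 0.747% and 0.595%. The shares of both lines on days 12 and 15 lay below those on days 6 and 9, with no overlap.

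**Figure D1:**
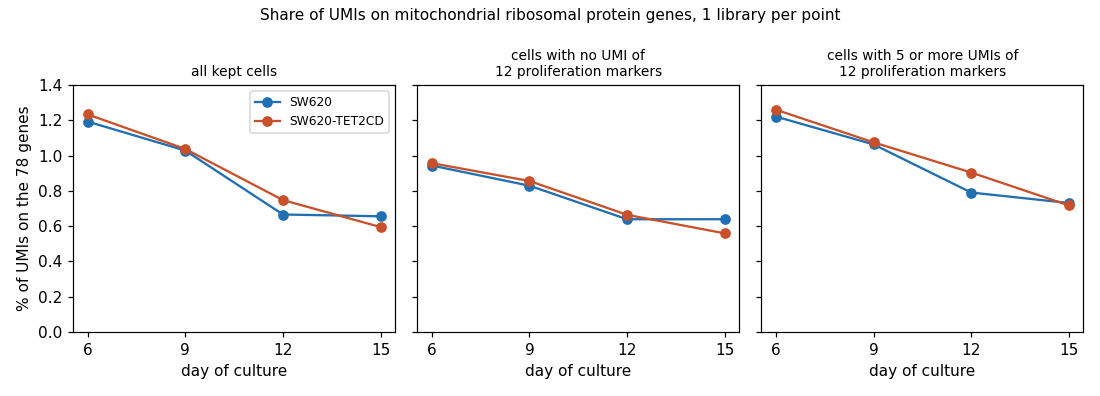
Percentage of all UMIs that fell on the 78 mitochondrial ribosomal protein genes (vertical axis, from 0) by day of culture (horizontal axis), 1 library per point, blue for SW620 and orange for SW620-TET2CD. From left to right the panels use all kept cells, cells with no UMI of 12 proliferation markers, and cells with 5 or more such UMIs, and in all of them both lines are lower on days 12 and 15 than on days 6 and 9.

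The transcripts of the mitoribosome fell together late in the culture. In the comparison of days 12 and 15 with days 6 and 9, blocked by line, 68 of the 78 genes fell and 0 rose at an adjusted p under 0.05 (edgeR quasi-likelihood test, Benjamini-Hochberg adjusted over 16526 genes), while 28.6% of all tested genes fell and 29.4% rose. DESeq2 called 70 lower and 0 higher, against 28.9% and 29.4% of all tested genes. An unadjusted edgeR p under 0.05, in either direction, was found for 71 of the 78, a count that includes the 68. The same held for 10390 of the 16526 tested genes. The median log2 fold change was -0.81, against 0.04 over all tested genes. For 60 of the 78 genes, the highest of the 4 late libraries lay below the lowest of the 4 early ones, which held for 22.4% of tested genes. For 1 gene, MRPL10, every late library lay above every early one (29.9% of tested genes). CPM were also divided by factors of TMM, the normalization method of edgeR, a scaling of these levels chosen after seeing the data. These factors came from all genes, whereas each edgeR fit made its own after its filter on low counts. On that scale 67 genes lay lower without overlap (28.9% of tested genes) and 0 higher (23.6%), so that MRPL10 overlapped. By over 1 on the log2 scale, 27 genes fell, against 10.6% of all tested genes. A lower level in all 3 steps from day 6 to day 15 and in both lines was found for 37 of the 78 genes and for 9.54% of tested genes, and with the TMM factors for 25 genes and 9.76%.

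**Figure D2:**
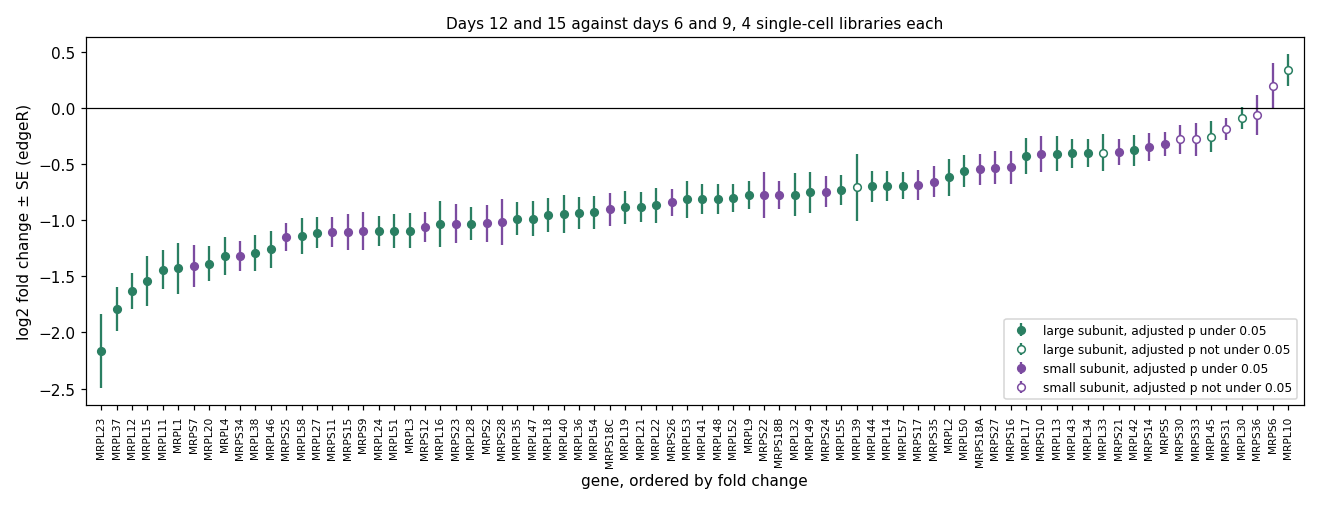
Log2 fold change of the 78 genes on days 12 and 15 against days 6 and 9 (vertical axis, edgeR, bars are 1 SE), ordered along the horizontal axis, green for the large and purple for the small subunit by gene name, filled where the adjusted p was under 0.05. The genes run from MRPL23 at -2.17 to MRPL10 at 0.34, and 76 of them lie below 0.

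The fall reached both subunits and both evolutionary classes, as assigned by gene name. Of the genes named for the large subunit 44 of 49 fell (median -0.88), and of those named for the small subunit 24 of 29 (median -0.74). Of the genes with a bacterial homologue 40 of 44 fell (median -0.89), and of the mitochondrial additions 28 of 34 (median -0.79). The lowest share was among the genes named for the small subunit and without a bacterial homologue, where 9 of 13 fell and the median was -0.74. Every gene is placed here by its name only, MRPS36 among them, so these shares depend on the naming. MRPS36 did not pass. Each of these shares stands beside 28.6% of all tested genes lower, and no test was made between these classes. Of the members with the ETS letters in their promoter 12 of 12 fell (median -1.06), against 43.7% of 1014 tested genes that hold these letters (median -0.25). Of those with the YY1 letters 12 of 13 fell (median -0.77), against 44.1% of 478 (median -0.24). Of those with the E-box 7 of 9 fell (median -0.87), against 41.9% of 1290 (median -0.19), and of those with the NRF1 letters 3 of 3 (median -0.87), against 38.2% of 435 (median -0.15). Among all 78 members, with or without such letters, 87.2% fell (median -0.81). No test was made between members with and without any of these letters.

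In the single-cell sums the steepest falls were in the large subunit. In SW620, MRPL23 went from 142 CPM on day 6 and 161 CPM on day 9 to 38.0 and 19.1 CPM on the later days. In SW620-TET2CD its levels were 165, 137, 68.3 and 23.3 CPM on the 4 days. All 4 late libraries lay below all early ones, and the log2 fold change was -2.17 ± 0.33 (SE, adjusted p = 0.00033, edgeR). MRPL23 lies on chromosome 11 and its exons overlap the antisense RNA MRPL23-AS1.
MRPL37, a large subunit protein with no bacterial homologue, was at 189, 155, 55.9 and 43.8 CPM in SW620 on the 4 days and at 200.4, 153, 74.2 and 43.3 CPM in SW620-TET2CD. Its log2 fold change was -1.79 ± 0.19 (adjusted p = 4.9e-05, edgeR), with no overlap of early and late libraries.
MRPL12, part of the stalk that recruits translation factors and a partner of the mitochondrial RNA polymerase, stood at 388, 359, 133 and 113 CPM in SW620. In SW620-TET2CD its levels were 414, 325, 162 and 108 CPM. Its log2 fold change of -1.63 ± 0.16 had the lowest adjusted p of all 78 genes (3.3e-05, edgeR).
MRPL15 (-1.54 ± 0.23), MRPL11 (-1.44 ± 0.17) and MRPL1 (-1.43 ± 0.23), all homologues of bacterial large subunit proteins, came next. MRPL1 and MRPL11 are the homologues of the bacterial L1 stalk protein and of a protein at the factor-binding site. In each of them, the late libraries of both lines lay below the early ones.

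In the small subunit, MRPS7, a homologue of a bacterial protein of the small subunit head, was at 202 to 259.9 CPM in the early libraries and 72.2 to 122 CPM in the late ones (log2 -1.41 ± 0.19, adjusted p = 0.00015, edgeR). MRPS34, a small subunit protein added in mitochondria, fell by 1.32 ± 0.13 on the log2 scale (adjusted p = 3.8e-05, edgeR). MRPS12, the homologue of the bacterial protein at the decoding centre, was at 196, 189.7, 98.1 and 101 CPM in SW620 and at 220.5, 194, 120.1 and 91.5 CPM in SW620-TET2CD on the 4 days. Its early and late libraries did not overlap, and its log2 fold change was -1.06 ± 0.13 (adjusted p = 0.00012, edgeR). The gene that starts beside it in the opposite direction, SARS2, went from 20.8 to 27.9 CPM in the early libraries to 9.04 to 16.5 CPM in the late ones (log2 -1.08 ± 0.16, adjusted p = 0.00033, edgeR). The facing pair MRPL46 and MRPS11 had log2 fold changes of -1.26 ± 0.17 and -1.11 ± 0.13.

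MRPS18A, MRPS18B and MRPS18C are 3 human homologues of a single bacterial protein. MRPS18A was at 61.0 to 71.1 CPM early and 41.9 to 53.2 CPM late, MRPS18B at 116 to 147 CPM and 77.7 to 87.0 CPM, and MRPS18C at 121 to 168 CPM and 79.0 to 86.7 CPM. None of them overlapped between early and late libraries. The log2 fold changes were -0.55 ± 0.14 for MRPS18A, -0.77 ± 0.13 for MRPS18B and -0.90 ± 0.15 for MRPS18C, and all passed the test (adjusted p = 0.0067, 0.00051 and 0.00048, edgeR). MRPL58 fell by 1.14 ± 0.16 on the log2 scale (adjusted p = 0.00022, edgeR), from 124 to 164 CPM early to 59.1 to 84.4 CPM late. MRPL41, a large subunit protein also studied as a regulator of cell death, fell by 0.81 ± 0.13 (adjusted p = 0.00049, edgeR).

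**Figure D3:**
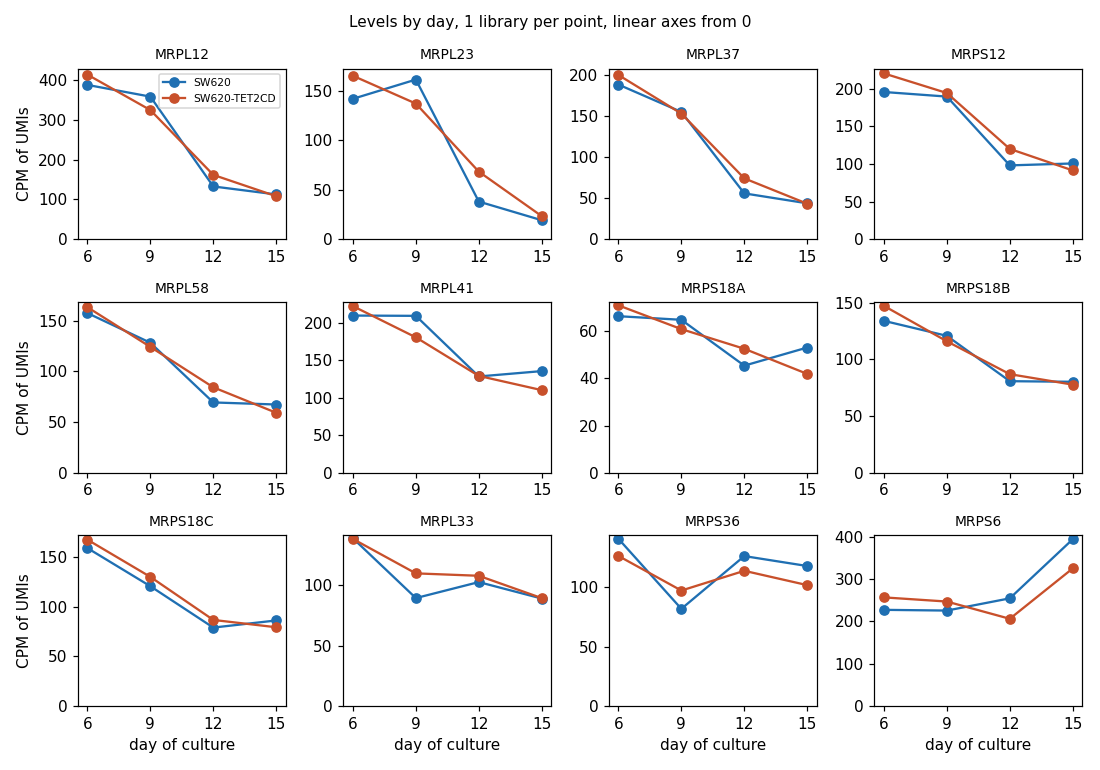
CPM of UMIs (vertical axes, linear from 0) by day of culture (horizontal axes) for 12 of the genes, 1 library per point, blue for SW620 and orange for SW620-TET2CD. MRPL23 and MRPL37 drop steeply between days 9 and 12, MRPS36 stays between 81.8 and 141 CPM, and MRPS6 is highest on day 15 in both lines.

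The genes that did not pass the test numbered 10 and were MRPL10, MRPL30, MRPL33, MRPL39, MRPL45, MRPS6, MRPS30, MRPS31, MRPS33 and MRPS36. MRPL10, the stalk protein to which MRPL12 binds, was at 30.1 to 40.2 CPM early and 42.2 to 52.6 CPM late, without overlap in CPM but with overlap after TMM scaling, and had a log2 fold change of 0.34 ± 0.14 (adjusted p = 0.061, edgeR). With upper-quartile scaling, which moved the median of all tested genes from 0.04 to 0.21, MRPL10 passed at 0.51. The same scaling left 58 members lower and 1 higher, with 22.0% of all tested genes lower and 37.8% higher, and a member median of -0.64. MRPS36 had a log2 fold change of -0.06 ± 0.18 (adjusted p = 0.77, edgeR), with early levels of 81.8 to 141 CPM that enclosed the late ones. MRPL33, one of the smallest large subunit proteins, was at 89.4 to 139 CPM early and 89.0 to 108 CPM late (log2 -0.40 ± 0.16, adjusted p = 0.056, edgeR).

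MRPS6, a homologue of bacterial S6, had a log2 fold change of 0.20 ± 0.20 (adjusted p = 0.42, edgeR). It was at 227, 226, 255 and 394 CPM in SW620 on the 4 days and at 257, 247, 206 and 325 CPM in SW620-TET2CD, so day 15 was the highest in both lines. The exons of MRPS6 overlap on the same strand with those of SLC5A3, a myo-inositol transporter that responds to osmotic stress, and reads of the shared part cannot be told apart. SLC5A3 rose by 1.80 ± 0.39 (adjusted p = 0.0026, edgeR), from 64.1 to 84.4 CPM early to 101 to 463 CPM late.

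The fall lay mainly between days 9 and 12. Between these days 54 of the 78 genes fell and 1 rose (all tested genes 22.6% and 21.4%, edgeR), with a median log2 fold change of -0.63. The deepest were MRPL23 (-1.63 ± 0.22), MRPL37 (-1.35 ± 0.17), MRPL12 (-1.32 ± 0.18), MRPS34 (-1.15 ± 0.18), MRPL11 (-1.11 ± 0.18) and MRPL20 (-1.09 ± 0.18), and MRPL10 rose by 0.60 ± 0.15. Each day has 1 library per line, so where one was left out the lone library of that day was assumed to vary like the others of the fit. Leaving out SW620 day 9, SW620-TET2CD day 9 or SW620 day 12 left 24, 30 and 19 genes lower, with 11.6%, 14.1% and 11.8% of all tested genes lower, and without SW620 day 9 no member rose. From day 6 to day 9, 78 of 78 log2 fold changes were below 0 (median -0.26), as were 48.7% of all tested genes. By edgeR 1 gene fell and 0 rose (0.357% of all tested genes fell and 0.569% rose). At an unadjusted p under 0.05 the count was 26, against 2730 of all 16526 tested genes. DESeq2 called 4 lower and 0 higher, against 1.26% and 1.17% of tested genes. The gene called by edgeR was MRPL39, a large subunit protein related to threonyl-tRNA synthetase. It fell from 54.5 to 19.0 CPM in SW620 and from 48.0 to 27.6 CPM in SW620-TET2CD (-1.16 ± 0.20, adjusted p = 0.025, edgeR). This call was lost without SW620 day 6, SW620-TET2CD day 6 or SW620 day 9, and without SW620 day 15 or SW620-TET2CD day 15 the count became 20 and 19, while the share of all tested genes lower became 4.30% and 4.17%. From day 12 to day 15, 6 genes fell and 1 rose (6.75% and 6.98% of tested genes), with a median of -0.19. The 6 were MRPL23 (-1.28 ± 0.22), MRPL1, MRPL15, MRPL16, MRPS28 and MRPS27, and MRPS6 rose by 0.68 ± 0.19 (adjusted p = 0.035, edgeR). The single libraries weighed on these counts, since 35 genes fell without SW620 day 15, 10 without SW620 day 12 and 0 without SW620-TET2CD day 12, while without SW620-TET2CD day 15 5 genes rose. The median log2 fold change of the members was -0.42, -0.34 and -0.02 in the first 3 of these settings and 0.05 in the last, so that its sign rested on 1 library. The shares of all tested genes moved with the counts, to 10.2%, 6.09% and 0.687% lower in the first 3 and 10.1% higher in the last. MRPS6 no longer passed when any library but SW620-TET2CD day 15 was left out.

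Markers of dividing cells fell over the same days. All 12 proliferation markers fell (median log2 -2.70), their share of UMIs went from 0.162% to 0.187% early to 0.0194% to 0.0429% late, and cells with no UMI of any of them grew from 4.002% to 11.8% of cells to 47.7% to 71.3%. Among the cells with none of these UMIs, the share of UMIs on the 78 genes was 0.944%, 0.829%, 0.639% and 0.639% in SW620 and 0.957%, 0.856%, 0.664% and 0.559% in SW620-TET2CD on the 4 days. In the sums of these cells 47 of the 78 genes fell and 0 rose on days 12 and 15 (median -0.51, all tested genes 0.04), where 16.3% of all tested genes fell and 17.6% rose. Between days 9 and 12, 29 of the 78 genes fell in these sums, against 8.17% of all tested genes. Among cells with 5 or more such UMIs, a setting chosen after seeing the data, the shares were 1.22%, 1.06%, 0.790% and 0.731% in SW620 and 1.26%, 1.08%, 0.904% and 0.717% in SW620-TET2CD, and 56 genes fell (median -0.62), against 18.4% of all tested genes lower and 18.5% higher. The early cells without these UMIs were few, 222 to 883 per library, and shallower than the other early cells. Late cells with 5 or more were also few, 313 to 818 per library against 4636 to 6621 early. In SW620 their median was 11413 UMIs on day 15, against 7127 over all kept cells. On day 6 it was 14048.5 against 13479. In cells with 5000 to 10000 UMIs, also chosen after seeing the data, 64 genes fell and 1, MRPS6, rose, against 28.9% and 27.2% of all tested genes.

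In the other lists of mitochondrial translation, as among the members, more genes fell than rose on days 12 and 15, where 28.6% of all tested genes fell and 29.4% rose. Of 5 subunits of the mitoribosome that do not carry an MRP name, 5 fell (median log2 -0.54), among them GADD45GIP1 (-1.18 ± 0.16) and AURKAIP1 (-1.09 ± 0.15). Of 28 assembly factors 20 fell and 1, the GTPase NOA1 (0.41 ± 0.13), rose (median -0.63). The deepest were MTG1 (-1.61 ± 0.24), a GTPase of large subunit assembly, and MPV17L2 (-1.51 ± 0.18). Of 18 translation factors 13 fell and 1 rose (median -0.46), with SLIRP, the RNA-binding partner of LRPPRC, at -1.38 ± 0.17 and the elongation factor TUFM at -1.13 ± 0.17, while the initiation factor MTIF3 rose by 0.36 ± 0.10. Of 20 aminoacyl-tRNA enzymes 15 fell and 0 rose (median -0.75), led by CARS2 (-1.66 ± 0.18) and FARS2 (-1.22 ± 0.24), and DESeq2 gave the same counts. Of 9 genes of mitochondrial DNA transcription and upkeep 5 fell and 1 rose (median -0.57), with SSBP1, the mitochondrial single-strand binding protein, at -1.10 ± 0.18, the transcription factor TFAM at -0.92 ± 0.12, and the polymerase subunit POLG2 up by 0.51 ± 0.14.

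Of 13 mitochondrially encoded proteins, whose RNAs the mitoribosome translates, 0 fell and 3 rose (median 0.23, edgeR), where 28.6% of all tested genes fell and 29.4% rose. At an unadjusted p under 0.05 the counts were 0 and 4, as they were by DESeq2. The genes that rose were MT-ND4L (0.97 ± 0.20), MT-ATP8 (0.94 ± 0.22) and MT-ND2 (0.93 ± 0.22). The cell filter caps mitochondrial UMIs at 10% of a cell, which bears on these levels. Of 77 tested ribosomal proteins of the cytosol, 11 rose and 4 fell (median 0.13), both below the shares of all tested genes. No test was made between these lists and the mitoribosomal genes. The share of the cytosolic proteins among UMIs was 24.0% to 25.0% early and 26.7% to 29.8% late. Among 8 tested regulators of mitochondrial genes 4 fell and 0 rose, with PPRC1 (-0.85 ± 0.10) and PPARGC1B (-0.84 ± 0.23), both of the PGC-1 family, in front. NRF1 (-0.54 ± 0.14) and GABPB1 (-0.58 ± 0.11) fell, whereas GABPA (0.27 ± 0.13, adjusted p = 0.09), MYC (0.12 ± 0.17, adjusted p = 0.56) and YY1 (-0.18 ± 0.11, adjusted p = 0.17) did not pass the edgeR test.

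**Figure D4:**
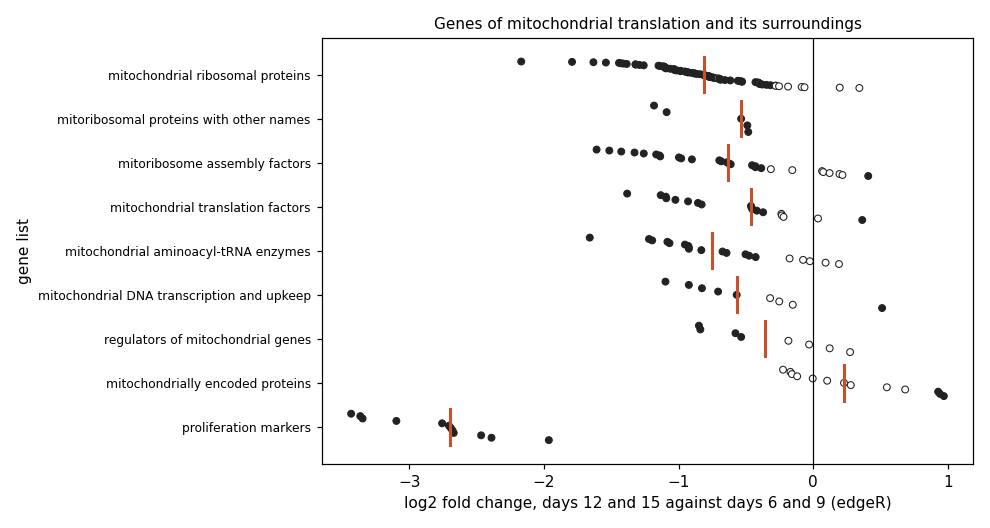
Log2 fold change on days 12 and 15 against days 6 and 9 (horizontal axis, edgeR) of each tested gene in 9 gene lists (rows), filled where the adjusted p was under 0.05, with the median of each list as an orange bar. Medians lie below 0 in all lists but that of mitochondrially encoded proteins, at 0.23, and the proliferation markers lie lowest, at -2.70.

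The lines showed no detected difference in these genes. In the fit blocked by day, 0 of the 78 genes were higher and 0 lower in SW620-TET2CD than in SW620 (2.37% and 1.85% of all tested genes, edgeR). No member had an unadjusted p under 0.05, and DESeq2 called 0 and had 1 at that level. The log2 differences ran from -0.24 to 0.17 with SEs of 0.09 to 0.16, and 65 of the 78 were below 0 (median -0.07), as were 50.8% of all tested genes. This median was 0.04 without SW620 day 15, 0.03 without SW620-TET2CD day 15 and -0.14 without either day 12 library, so it gives no stable direction. With the day as a block, leaving out either library of a day takes that day out of the comparison of the lines. The paired values are therefore not separate checks. The smallest p-values belonged to MRPS26 (-0.24 ± 0.12), MRPS31 (0.17 ± 0.09) and MRPS2 (-0.24 ± 0.13), with adjusted p = 0.39, 0.40 and 0.43 (edgeR). MRPS31 was at 32.8 to 37.6 CPM in SW620 and at 40.3 to 45.5 CPM in SW620-TET2CD, without overlap, whereas after TMM scaling the lines overlapped. By day, the ratios of the lines depended on the scaling. In CPM, 50, 45, 69 and 21 of the 78 genes were higher in SW620-TET2CD on days 6, 9, 12 and 15, with median log2 ratios of 0.03, 0.03, 0.19 and -0.13. After TMM scaling, with the factors from all genes, the counts were 40, 24, 61 and 1, and the medians 0.00, -0.08, 0.15 and -0.43. Day 12 had most genes higher in SW620-TET2CD and day 15 fewest on either scale, while the median of day 9 changed sign. With 1 library per line and day, these day-wise ratios have no test. They were not set against the ratios of all tested genes, so they cannot be called particular to the members.

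The size of the late fall did not differ detectably between the lines. The interaction of line and period was called for 0 of the 78 genes (0% of all tested genes higher and 0% lower, edgeR), with 0 at an unadjusted p under 0.05 and 0 called by DESeq2. The smallest p-values were those of MRPS6 (-0.58 ± 0.38), MRPL53 (-0.44 ± 0.33) and MRPL10 (-0.33 ± 0.29), and their SEs show how coarse this comparison of 2 libraries per cell of the design is.

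In bulk samples, fewer cells of a type and less RNA per cell cannot be told apart. Bulk RNA-seq gave levels per transcript length, as TPM, the share of a transcript among all transcripts. The 78 genes summed to 7783 TPM in SW620 on day 6. The day 15 sums in SW620 were 5962 TPM for the inside fraction and 5837 TPM for the outside one, and in SW620-TET2CD 5854 and 5817 TPM. SW480 on day 6 stood at 8355 TPM, of which 982.4 TPM were MRPS6 alone. By mean TPM over the 6 libraries the order began with MRPS6 (370.1), MRPL51 (233), MRPS24 (182), MRPL12 (174.6) and MRPL52 (171), and ended with MRPS31 (22.2) and MRPL50 (15.6). MRPL51, second here, had the highest level in the single-cell sums. MRPL53 was at 52.1 to 190.8 TPM in bulk and at 2.23 to 4.41 CPM in the single-cell libraries, where only the 3′ end is read.

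The lower level on day 15 was present in bulk too. Against SW620 on day 6, a single library that both ratios share, 69 of the 78 genes were lower inside the colonies (median log2 ratio of TPM + 1 of -0.39, all genes -0.05) and 71 outside (median -0.37, all genes -0.08). By over 0.5 log2, 30 genes were lower and 0 higher inside, where 18.4% and 16.7% of 16431 genes with at least 1 TPM were. Outside, 24 were lower and 0 higher, against 19.2% and 14.2% of 16284 genes. These ratios come from 1 library per group and have no test. Of all genes with at least 1 TPM, 53.6% were lower inside and 56.6% outside. The single-cell ratio of day 15 to day 6 in SW620 had a median of -0.87 over the members, and 66 of them were lower in it and in both bulk fractions. This joint count was not made over all genes. In 55 of these 66 genes the bulk ratios, on TPM + 1, were both closer to 0 than the single-cell ratio, which had nothing added to the CPM. That count was not made over all genes either, so it cannot be called particular to the members. MRPL12, for one, went from 203.9 TPM to 165.4 inside and 150.6 outside, while its CPM went from 388 to 113. MRPL23, with the steepest late fall in the single-cell sums, went from 149.3 TPM to 108.0 inside and 99.0 outside. Its CPM went from 142 to 19.1. For MRPL15 the levels were 71.5 TPM against 62.8 and 57.5, and 118.6 CPM against 29.0. MRPS28, a small subunit protein, had the deepest bulk fall inside, from 90.1 to 38.8 TPM, and MRPL33 the deepest outside, from 175.2 to 82.4 TPM. MRPS6 was lower on day 15 in bulk, at 260.6 and 242.1 TPM against 358.9 TPM, and higher on day 15 in the single-cell sums. MRPS18B was at 70.4 TPM on day 6 and at 86.8 and 72.2 TPM on day 15.

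**Figure D5:**
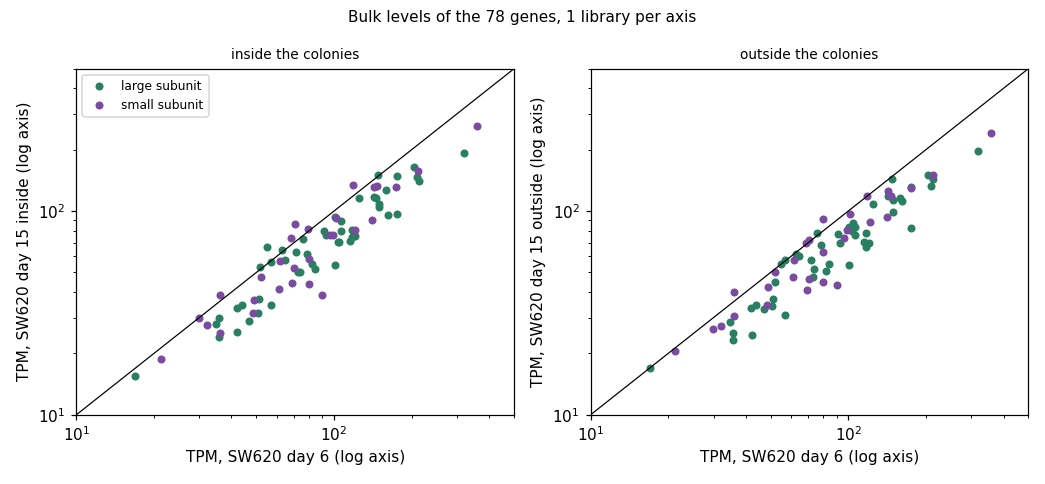
TPM of the 78 genes in SW620 on day 15 (vertical axes, log scale), inside the colonies on the left and outside on the right, against SW620 on day 6 (horizontal axes, log scale), with the line of equal levels, green for the large and purple for the small subunit by gene name. Most points lie under the line, 69 inside and 71 outside.

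Between the inside and the outside of the colonies no difference was detected with 4 libraries. With the line as a block, 0 of the 78 genes were higher and 0 lower outside (0% of all 17722 tested genes in either direction, edgeR), 1 had an unadjusted p under 0.05, and DESeq2 and limma on log2(TPM + 1) called 0 as well. The fit leaves 1 residual degree of freedom. The smallest p-values were those of MRPL57 (-0.34 ± 0.11), MRPL24 (-0.26 ± 0.11) and MRPL10 (-0.22 ± 0.10), with an adjusted p = 0.77 each (edgeR). MRPL57, a large subunit protein, had 29.9 TPM inside against 25.1 TPM outside in SW620, and 30.3 against 23.5 TPM in SW620-TET2CD. Over the members the median log2 fold change was -0.02. For the 12 proliferation markers it was 1.02 in the same fit, with 0 of them below 0 and 0 past the threshold. At an unadjusted edgeR p under 0.05 were 10 of these 12, and 1068 of all 17722 tested genes.

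SW480 and SW620 were close in sum and far apart in a few genes. On day 6, 45 of the 78 genes were lower in SW480 (median log2 ratio -0.07, all genes 0.00). By over 0.5 log2, 16 were lower and 11 higher, against 25.5% and 28.4% of 17191 genes. MRPS6 was furthest above, at 982.4 TPM against 358.9 TPM in SW620, and MRPS30 furthest below, at 33.6 against 79.5 TPM. MRPL41 was at 240.5 against 120.7 TPM. There was 1 library per line, so these values carry no test.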

How the data were processed

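The members and gene lists were chosen with earlier results of these data known. For the single-cell libraries (10x 3′ v3.1 kit) the authors deposited UMI count matrices made with Cell Ranger 4.0 and GRCh38. For bulk (TruSeq kit, which does not mark strand) the authors deposited RSEM expected counts and TPM values per gene, where the submitters' notes name Bowtie and a mouse build, although the tables hold human Ensembl identifiers, so their build and annotation are not settled here.

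Kept cells had 1000 to 20000 UMIs, 200 to 4500 detected genes and no more than 10% of UMIs on mitochondrial genes, and counts were summed per library. Doublets were not called. CPM divide by the library's total UMIs, without scaling factors. Tests were two-sided and used edgeR 4.0.16 in R 4.3.3 (filterByExpr, TMM factors, quasi-likelihood fit) with a threshold of 0.05 on Benjamini-Hochberg adjusted p, on bulk expected counts rounded to whole numbers. DESeq2 1.42.0 and limma 3.58.1 were alternatives. Late against early days had the line as a block, the lines were compared with the day as a block, and consecutive days came from a fit of all 8 libraries. SEs were derived from the log2 fold change and its test. Counts were simulated with the spread typical of genes at each level, without spread particular to a gene and without line or day effects. On them edgeR recovered 98% of genes with a log2 fold change of 1 for late against early days among 16526 genes, and 86% for outside against inside among 17722. The real libraries vary in more ways, so these shares do not give the power of the real fits. Members named with full statistics were the 6 deepest falls and largest rises per comparison that passed, moved alike in both lines and averaged at least 8 CPM, or the 3 with the smallest p where none passed, plus 10 genes listed by name. MRPS7, MRPL46, MRPS11, MRPL17 and the genes whose promoters or bulk extremes are given were chosen after their values were seen. Depth adds counting error, and it also bears on which cells are kept and how many proliferation UMIs a cell shows. In SW620 the upper limits kept 5547 of 7559 cells on day 6 and 7509 of 7596 on day 9.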

Additional observations from a re-analysis of the deposited data

How the results depend on the processing

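The late fall was stable across the settings run: of 78 genes, 47 to 70 were lower under the alternatives, including those leaving out each library (60 to 70 genes). The share of all tested genes lower ran from 16.3% to 29.7% over the same alternatives. A higher call appeared for 1 gene with upper-quartile factors, 1 without the 8% of kept cells with most UMIs (MRPL10 in both) and 1 in cells with 5000 to 10000 UMIs (MRPS6), and 0 to 1 when a library was left out. Between the lines the member counts were 0 in all settings. They were 0 too for the interaction and for outside against inside, but these fits called no gene at all, or under 1% of genes in either direction, in each setting, with 2 libraries or fewer per group, so the zeros say nothing about stability.

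The counts between consecutive days were less stable. From day 6 to 9, where 1 gene was lower, DESeq2 gave 4, no filter on low counts 8, every deposited barcode 3, cells without proliferation UMIs 0, cells with 5 or more such UMIs 4 and cells with 5000 to 10000 UMIs 0, and leaving out a library gave 0 to 20. From day 9 to 12, 54 lower became 29 without proliferation UMIs and 26 with 5 or more, and 19 to 63 with a library left out. The 1 higher became 2 with upper-quartile factors, 2 with 5 or more proliferation UMIs, 0 at 5000 to 10000 UMIs and 0 to 2 with a library left out. From day 12 to 15, 6 lower became 11 with no filter, 10 with upper-quartile factors, 12 with every barcode, 11 with 5 or more proliferation UMIs, 0 at 5000 to 10000 UMIs and 0 to 35 with a library left out. The 1 higher became 2 with no filter, 2 without proliferation UMIs, 0 with 5 or more, 0 at 5000 to 10000 UMIs and 0 to 5 with a library left out. The share of all tested genes lower also moved over these settings, from 0.00593% to 4.30% for day 6 to 9, 8.17% to 27.5% for day 9 to 12 and 0.687% to 10.2% for day 12 to 15. The cause of these changes was not tested, and some of the settings also leave fewer cells or libraries. The settings with 5 or more proliferation UMIs and with 5000 to 10000 UMIs were chosen after seeing the data. For named genes, 600 of the values kept direction and side of the threshold, 40 were no longer past it, 6 newly passed and 11 changed sign, none of them past the threshold. For MRPS36 in the late test (-0.06) the value was 0.11 with upper-quartile factors, 0.057 without proliferation UMIs, 0.019 with 5 or more, 0.0023 at 5000 to 10000 UMIs and -0.24 to 0.065 with a library left out. For MRPS6 (0.20) it was -0.11 with 5 or more proliferation UMIs and -0.044 to 0.35 with a library left out. MRPL53 in the interaction (-0.44) became 0.056 without proliferation UMIs. MRPL24 outside against inside (-0.26) ran from -0.60 to 0.12 with a library left out. Those bulk fits had no line block, so differences between the lines enter their values. MRPL24 was at 53.1 TPM inside and 44.8 outside in SW620, and at 85.0 and 74.3 TPM in SW620-TET2CD.

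The libraries were paired by line or by day, not by replicate number, of which each condition has 1. Leaving out the line or day block, and the line block in bulk, left the member counts as they were (68 lower in the late test), while the share of all tested genes higher in SW620-TET2CD went from 2.37% to 0.254% and the share lower from 1.85% to 0.0242%.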
